A study of Homo sapiens with 6 samples.

Results

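The 10 genes described here lie near the end of the short arm of chromosome 4, in band 4p16. The 2.11 Mb that they span also hold 18 other genes of the count table. In the order of their positions the 10 are OTOP1, TMEM128, LYAR, MSX1, STK32B, EVC2, EVC, CRMP1, JAKMIP1 and WFS1. They are 10 of 38167 genes in the count table. They were chosen as the neighbours of OTOP1 and JAKMIP1, and that pair was chosen by its higher counts in the stiff than in the soft libraries of this same comparison. The values of that comparison for the 10 genes, their edgeR p-values and calls among them, are therefore given as a description from which nothing is concluded. The RNA of other genes, taken by position alone, between and beside them, was compared in the same fit.

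RNA was measured in small extracellular vesicles, membrane particles that cells shed into their medium. The vesicles came from spheroids of Cal27, an established squamous carcinoma line of the tongue, and were taken from the medium by insulator-based dielectrophoresis. Both groups were Cal27 spheroids at day 14 from liquid overlay culture, and no gene was altered in either. The soft group was kept in Matrigel, a basement membrane gel, at 3 mg/mL and the stiff group at 12 mg/mL, with 3 libraries in each. The labels call the libraries biological replicates of 1 cell line without saying that they came from separate cultures, so a p-value measures only the spread between these libraries. In bulk RNA of this kind, fewer vesicles or cells of a type and less RNA in each of them cannot be told apart.

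The 10 genes do not form 1 family. OTOP1 encodes otopetrin 1, a proton channel of the inner ear and of sour taste cells. JAKMIP1 encodes a microtubule-binding protein, mostly of neurons, that also binds Janus kinases, and CRMP1 encodes a collapsin response mediator protein that acts on the cytoskeleton in semaphorin signalling. EVC and EVC2 start next to each other on opposite strands and encode partner proteins at the base of the primary cilium, where they pass on the Hedgehog signal. MSX1 encodes a homeobox transcription factor of tooth and palate development, and WFS1 encodes wolframin, a membrane protein of the endoplasmic reticulum. LYAR is a nucleolar protein tied to ribosomal RNA processing, STK32B a serine/threonine kinase, and TMEM128 a membrane protein whose function is little known.

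The starts of the 3 genes with the clearest difference between the groups, picked by those values, are printed as a description of sequence. Each is the 250 bases before the first listed start, 5′ to 3′ on the gene's own strand, from RefSeq on GRCh38.p14. Capitals mark GC boxes, searched as GGGCGG and its reverse complement CCGCCC.
OTOP1: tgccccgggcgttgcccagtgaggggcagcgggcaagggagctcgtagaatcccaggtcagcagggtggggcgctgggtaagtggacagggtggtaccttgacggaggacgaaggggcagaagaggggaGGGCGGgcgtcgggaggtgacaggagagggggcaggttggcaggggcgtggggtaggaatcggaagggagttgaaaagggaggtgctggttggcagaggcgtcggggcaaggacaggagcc
CRMP1: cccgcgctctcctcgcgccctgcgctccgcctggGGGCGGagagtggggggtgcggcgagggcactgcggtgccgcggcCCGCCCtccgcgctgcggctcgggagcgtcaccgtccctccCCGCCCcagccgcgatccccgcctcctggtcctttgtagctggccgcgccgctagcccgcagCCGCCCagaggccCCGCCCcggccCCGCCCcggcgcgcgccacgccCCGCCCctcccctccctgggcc
JAKMIP1: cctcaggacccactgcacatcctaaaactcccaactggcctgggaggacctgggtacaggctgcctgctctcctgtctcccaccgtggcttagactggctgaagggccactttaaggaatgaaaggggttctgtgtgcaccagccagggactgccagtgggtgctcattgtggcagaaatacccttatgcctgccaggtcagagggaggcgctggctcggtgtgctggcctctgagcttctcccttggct
The OTOP1 window, chr4:4226930-4227179 on the minus strand, had 67.2% GC, 14 CpG dinucleotides and 1 GC box. The CRMP1 window, chr4:5893087-5893336 on the minus strand, had 82.8% GC, 37 CpG and 7 GC boxes, and RefSeq lists 4 starts for this gene. The JAKMIP1 window, chr4:6194620-6194869 on the minus strand, had 59.6% GC, 3 CpG and no GC box, and it lies inside the gene's longest annotated span. The windows of these listed starts ran from CpG-rich to CpG-poor. The bases before the outer end of JAKMIP1, at 6200549, were not examined, so its window need not stand for the gene. Over all 10 genes, 7 had a GC box before the first start, against 42.4% of 27195 promoter windows of the same length, and their windows are a description of sequence in which nothing was measured.

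The 6 libraries held 2445498 to 2977837 counts, and 97.5% to 97.9% of all listed genes had at least 1 count in each of them. Ribosomal RNA and mitochondrially encoded genes together took 4.55% to 10.4% of the counts of the soft libraries and 20.2% to 23% of those of the stiff libraries. Ribosomal RNA was 5.35% ± 3.11 (SD, n = 3) in soft and 21.6% ± 1.44 (SD, n = 3) in stiff, and the mitochondrial genes were 1.63% ± 0.17 and 0.176% ± 0.0219. Other genes therefore took a smaller share of the counts in the stiff libraries (2103906 to 2313629 counts, against 2281846 to 2374017 in soft), and a level below is in CPM, counts scaled to a common library size with TMM, the trimmed mean of M values, unless another denominator is named. Markers of squamous epithelium, the labelled cell type, had a median of 7.62 CPM per kilobase of exon, against 6.21 for all protein-coding genes. The medians were 5.2 for neural markers, 5.94 for endothelium, 3.46 for blood and 3.37 for fibroblasts. Single markers overlapped, from 3.11 to 17.4 in squamous, 2.4 to 18.2 in blood and 1.87 to 9.29 in fibroblasts. Endothelium ran from 5.42 to 7.69 and neural from 3.86 to 6.36. These levels thus do not tell the cell types apart. No marker was at 0. KRT14, a basal keratin, was the only 1 of the 26 markers tested to pass, at a log2 fold change of 0.69 ± 0.17 (SE, edgeR adjusted p = 0.0281), and it was called in only 2 of 6 fits that left out 1 library (lost without soft replicates 1 and 3 and stiff replicates 1 and 2). It was not called in limma (adjusted p = 0.11), in DESeq2 without its filter (adjusted p = 0.496) or after the GC correction of edgeR (adjusted p = 0.0547). At an unadjusted p under 0.05 in edgeR there were KRT14, KRT17 and KRT5, 3 of the 10 squamous markers, all higher in stiff. Of the other 16 markers there were 0, and of all genes tested 9.51%. Only 5 of the 10 squamous markers were above 0, with a median log2 fold change of 0.0522, from -0.217 (SFN) to 0.694 (KRT14). The summed CPM of the squamous markers was 273 to 286 in soft and 282 to 317 in stiff, that of the neural markers 88.2 to 95.3 and 82.9 to 95.8. The fibroblast markers summed to 211 to 230 and 212 to 232, blood to 55.4 to 66 and 54.7 to 58.9, and endothelium to 148 to 183 and 148 to 162. The part of cell type or of the ribosomal share in the values below was not tested.

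OTOP1 (chr4:4188726-4226929, minus strand, hg38) had 31, 35 and 44 counts in soft replicates 1 to 3 and 67, 66 and 54 in stiff replicates 1 to 3. The 3 stiff libraries lay above the 3 soft ones. Its level was 13.55 ± 2.716 CPM in soft and 24.28 ± 3.532 in stiff (SD, n = 3 each), a log2 fold change of 0.84 ± 0.21 (SE), or 1.79-fold with a 95% interval from 1.34 to 2.38. This was the widest difference of the 10, on some of the lowest counts.

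JAKMIP1 (chr4:6026199-6200549, minus strand) had 142, 142 and 144 counts in soft and 165, 206 and 204 in stiff. The soft libraries were almost equal and the stiff ones all higher. The level went from 52.61 ± 1.499 to 74.24 ± 5.547 CPM, a log2 fold change of 0.50 ± 0.11 (SE). Of the 3808 exon bases that GENCODE 29 gives JAKMIP1, 2971 (78%) are also exon of C4orf50 on the same strand, while in RefSeq the genes do not overlap: C4orf50 ends at 6018546, before JAKMIP1 starts. Whether reads could be split between the pair depends on the authors' annotation, which the sources used here do not name. Of the 38167 gene symbols in the count table, 94.2% matched RefSeq, while 27221 had an exon length in GENCODE 29. Symbols of the segment such as LOC107986254 matched RefSeq and had no GENCODE 29 exon length. The names in the count table thus lie closer to RefSeq, though the annotation itself is not stated. C4orf50 itself had 164, 176 and 137 counts in soft and 155, 227 and 184 in stiff, groups that overlap in counts, and a log2 fold change of 0.32 ± 0.11 (SE, edgeR adjusted p = 0.232).

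CRMP1 (chr4:5820764-5893086, minus strand) had 119, 100 and 125 counts in soft and 133, 164 and 163 in stiff. All stiff libraries were above all soft ones. The level was 42.33 ± 5.572 CPM in soft and 59.4 ± 4.095 in stiff, with a log2 fold change of 0.49 ± 0.13 (SE). CRMP1 shares 159 exon bases with EVC, which runs on the opposite strand, and the strand setting of the counting is not given in the sources used here.

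EVC (chr4:5711201-5829057, plus strand) had 174, 153 and 167 counts in soft and 167, 190 and 178 in stiff, among the highest of the 10. The raw counts overlapped, while in CPM the stiff libraries, from 67.68 to 71.31, lay above the soft ones, from 55.42 to 63.83. Its log2 fold change was 0.19 ± 0.11 (SE). Its partner EVC2 (chr4:5529011-5709548, minus strand) had 99, 92 and 77 counts in soft and 87, 90 and 88 in stiff, which overlap, and 0.06 ± 0.15 (SE) on the log2 scale. The partner genes thus had intervals that both include 0, from -0.03 to 0.41 for EVC and from -0.24 to 0.36 for EVC2.

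MSX1 (chr4:4859665-4863936, plus strand) had 79, 62 and 61 counts in soft and 63, 91 and 76 in stiff, a log2 fold change of 0.26 ± 0.17 (SE). STK32B (chr4:5019386-5500989, plus strand) had 63, 59 and 89 counts in soft and 69, 92 and 73 in stiff, or 0.22 ± 0.17. WFS1 (chr4:6269850-6303265, plus strand) had 131, 160 and 147 counts in soft and 143, 175 and 132 in stiff, or 0.11 ± 0.12. In these 3 genes the groups overlapped in counts and in CPM, and stiff replicate 2 was the highest stiff library in each.

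The remaining pair lay on the other side of 0. LYAR (chr4:4267701-4290154, minus strand) had 25, 31 and 27 counts in soft and 12, 25 and 27 in stiff, a log2 fold change of -0.30 ± 0.29 (SE). TMEM128 (chr4:4235542-4248223, minus strand) had 39, 33 and 26 counts in soft and 25, 40 and 26 in stiff, or -0.03 ± 0.26. Both sit just beyond OTOP1, the gene with the widest difference, and both have about 25 to 40 counts in most libraries, at which only large changes can be seen: the interval of LYAR ran from -0.88 to 0.27 and that of TMEM128 from -0.54 to 0.48.

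**Figure D1:**
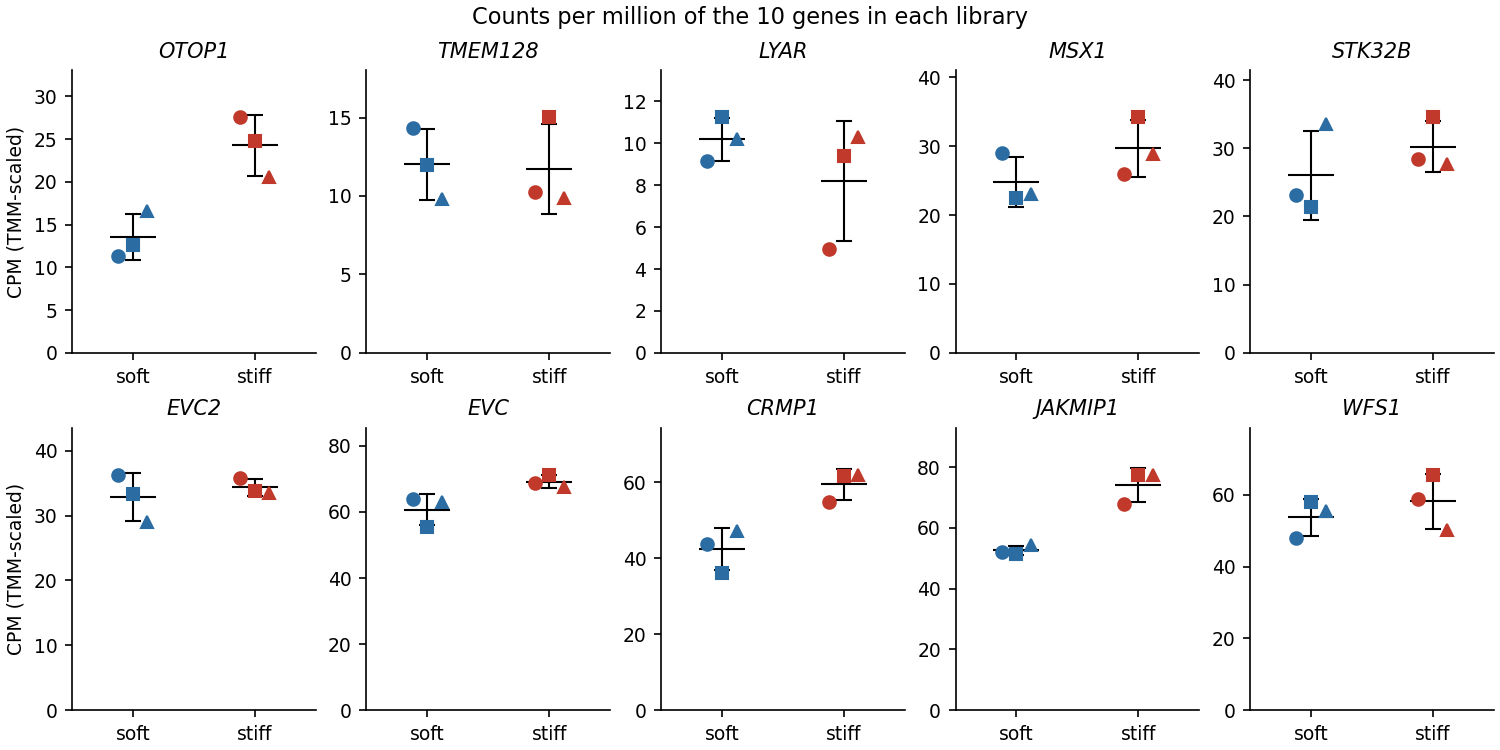
CPM (vertical axis, TMM-scaled, from 0) of each of the 10 genes in the 3 soft and 3 stiff libraries; circles, squares and triangles are replicates 1, 2 and 3, and the bars give the mean and SD. The stiff libraries lie wholly above the soft ones in OTOP1, EVC, CRMP1 and JAKMIP1 and overlap them in the other 6 genes.

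Across the set, 8 of the 10 genes had a log2 fold change above 0 with TMM scaling, with a median of 0.21, against 49.1% of the 31074 genes tested and a median of -0.0048 over all of them. When libraries were scaled by their totals alone, the 3 genes OTOP1, CRMP1 and JAKMIP1 stayed above 0 and MSX1, STK32B, EVC2, EVC and WFS1 went below it, while the median over all genes went to -0.27. In 4 genes the CPM of all stiff libraries lay above those of all soft ones, as it did in 7.38% of all genes tested. In edgeR's quasi-likelihood test, 3 of the 10 (OTOP1, CRMP1 and JAKMIP1) had an adjusted p under 0.05 and were higher in stiff, as were 0.286% of all genes tested (89 genes), with 0.451% called in either direction. Since that comparison chose the genes, nothing is read from these counts. The 3 genes had adjusted p of 0.0103 for JAKMIP1, 0.0281 for OTOP1 and 0.0377 for CRMP1, and the next of the 10 was EVC at 0.618. Without OTOP1 and JAKMIP1, 6 of the 8 neighbours were above 0, with a median of 0.15.

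The calls were not stable against single libraries. Without soft replicate 2, and likewise without stiff replicate 2, none of the 10 genes was called, and the whole comparison went from 140 called genes to 77 and 60. Without soft replicate 1 only JAKMIP1 was called, and without stiff replicate 3 only OTOP1. The other 2 omissions left CRMP1 and JAKMIP1 called (without stiff replicate 1) or all 3 genes (without soft replicate 3). The fold changes themselves stayed above 0, from 0.73 to 1.01 on the log2 scale for OTOP1, from 0.47 to 0.56 for JAKMIP1 and from 0.39 to 0.58 for CRMP1, with fewer libraries in each of these fits. Stiff replicate 2 was the highest stiff library in CPM for 5 of the 10 genes and the lowest for none. Soft replicate 2 was the lowest soft library for 5 of the 10.

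As a share of all counts, the 10 genes together took 0.03561% ± 0.00128 in soft and 0.03602% ± 0.00282 in stiff (SD, n = 3 each), a ratio of 1.01, and the groups overlapped. As a share of the counts outside ribosomal RNA and mitochondrial genes, they took 0.0383% ± 0.00164 and 0.04601% ± 0.00279, a ratio of 1.2, with all stiff libraries above all soft ones. On that second scale the ratio was 1.44 for OTOP1, CRMP1 and JAKMIP1 together and 1.08 for the other 7. The direction for those 7 depended on the denominator, since their ratio over all counts was 0.912.

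Per kilobase of exon, JAKMIP1 was the highest of the 10 in both groups, at 13.81 ± 0.394 CPM per kilobase in soft and 19.5 ± 1.46 in stiff (SD, n = 3 each). In soft it was followed by WFS1 at 11.92 ± 1.14, MSX1 at 11.7 ± 1.71, EVC at 8.5 ± 0.647, CRMP1 at 7.27 ± 0.957 and OTOP1 at 7.27 ± 1.46. TMEM128 had 6.92 ± 1.3 in soft, EVC2 5.97 ± 0.664, STK32B 4.89 ± 1.24 and LYAR, the lowest, 4.4 ± 0.444 CPM per kilobase. In that order WFS1 and MSX1 were closer than the larger SD of the pair, as were all neighbours from CRMP1 down to LYAR. In stiff the order was JAKMIP1, MSX1 at 13.99 ± 1.97, OTOP1 at 13.03 ± 1.9 and WFS1 at 12.9 ± 1.72, of which the last 3 were not apart by more than the larger SD. CRMP1 at 10.2 ± 0.703 and EVC at 9.68 ± 0.263 came next, again not apart, then TMEM128 at 6.75 ± 1.64, EVC2 at 6.23 ± 0.227 and STK32B at 5.68 ± 0.704, each within the larger SD of its neighbour, and LYAR at 3.53 ± 1.23. Over all 6 libraries, JAKMIP1, a gene known from neurons, stood at percentile 92.7 of 18626 protein-coding genes. LYAR, known from dividing cells, stood at percentile 22.8. On this scale neural markers had a median of 5.2, squamous markers 7.62 and all protein-coding genes 6.21. Whether such levels tell expressed from silent genes was not tested. Of the 3808 exon bases used for JAKMIP1, 2971 (78%) are shared with C4orf50, so its level per kilobase depends on the annotation.

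The segment from OTOP1 to WFS1 spans 2.11 Mb and holds 18 other genes of the table. Of these, 8 non-coding genes had too few counts to be tested, at most 11 in any library. The 10 tested were ZBTB49, NSG1, STX18, STX18-AS1, CYTL1, C4orf50, JAKMIP1-DT and 3 uncharacterised RNA genes. In edgeR 0 of these 10 passed an adjusted p of 0.05, and limma and DESeq2 without its independent filter also called 0. At an unadjusted p under 0.05 there was 1, C4orf50, against 9.51% of all genes. Their log2 fold changes ran from -0.27 to 0.38 with a median of 0.14, and 9 of 10 were above 0 with TMM scaling, while with library totals alone the median was -0.12. The median fell to 0.0687 without stiff replicate 1 and was 0.272 without stiff replicate 2. NSG1, a protein of neuronal endosomes, had 34, 32 and 31 counts in soft and 41, 35 and 43 in stiff, the only 1 of the 10 whose groups did not overlap in CPM, with a log2 fold change of 0.37 ± 0.24 (SE, edgeR adjusted p = 0.665). Under GENCODE 29, but not by RefSeq spans, C4orf50 shares exons with JAKMIP1. Whether its counts are separate from those of JAKMIP1 depends on the annotation used, and the symbols of the count table lie closer to RefSeq.

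Genes within 2 Mb on either side were compared in the same way. In edgeR 0 of 56 passed at an adjusted p of 0.05, and DESeq2 and limma also called 0. At an unadjusted p under 0.05 there were 18, or 32.1%, all of them higher in stiff, where 5.01% of all genes tested were higher at that p. With TMM scaling 42 of the 56 (75.0%) were above 0, and the median log2 fold change was 0.17, or 1.13-fold. In flanks of 1 Mb (29 genes) it was 0.106, with 69.0% above 0. The side before OTOP1 (32 genes, median 0.18) and the side after WFS1 (24 genes, median 0.17) had nearly the same median. Of the 56, 17 had all stiff libraries above all soft ones in CPM and 0 had them all below, against 7.38% and 6.76% of all genes. With library totals alone the median was -0.0967, which was 0.176 above the median of all genes on that scale. Against the median of all genes with TMM scaling, the other genes of the segment lay 0.149 higher and the flanks 0.177 higher. Whether these sets differ from the rest of the genome by more than neighbouring genes commonly do was not tested.

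Flank genes with low unadjusted p, named here after their values were seen, are examples that lie above the flank median. HTT, the huntingtin gene, had 229, 235 and 221 counts in soft and 228, 252 and 291 in stiff, a log2 fold change of 0.24 ± 0.10 (SE, edgeR adjusted p = 0.314). ADRA2C, an adrenergic receptor, had 119, 101 and 125 counts in soft and 142, 146 and 139 in stiff, or 0.38 ± 0.13 (edgeR adjusted p = 0.205). SH3TC1, beyond WFS1, had 165, 184 and 165 counts in soft and 188, 212 and 212 in stiff, or 0.33 ± 0.11 (edgeR adjusted p = 0.186). In CPM HTT, ADRA2C and SH3TC1 had stiff libraries above the soft ones. GRK4, with the lowest unadjusted p of the flanks (0.00244 in edgeR), was at 0.61 ± 0.20 (SE, edgeR adjusted p = 0.178). Its groups overlapped in CPM. None of these genes passed over all genes.

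**Figure D2:**
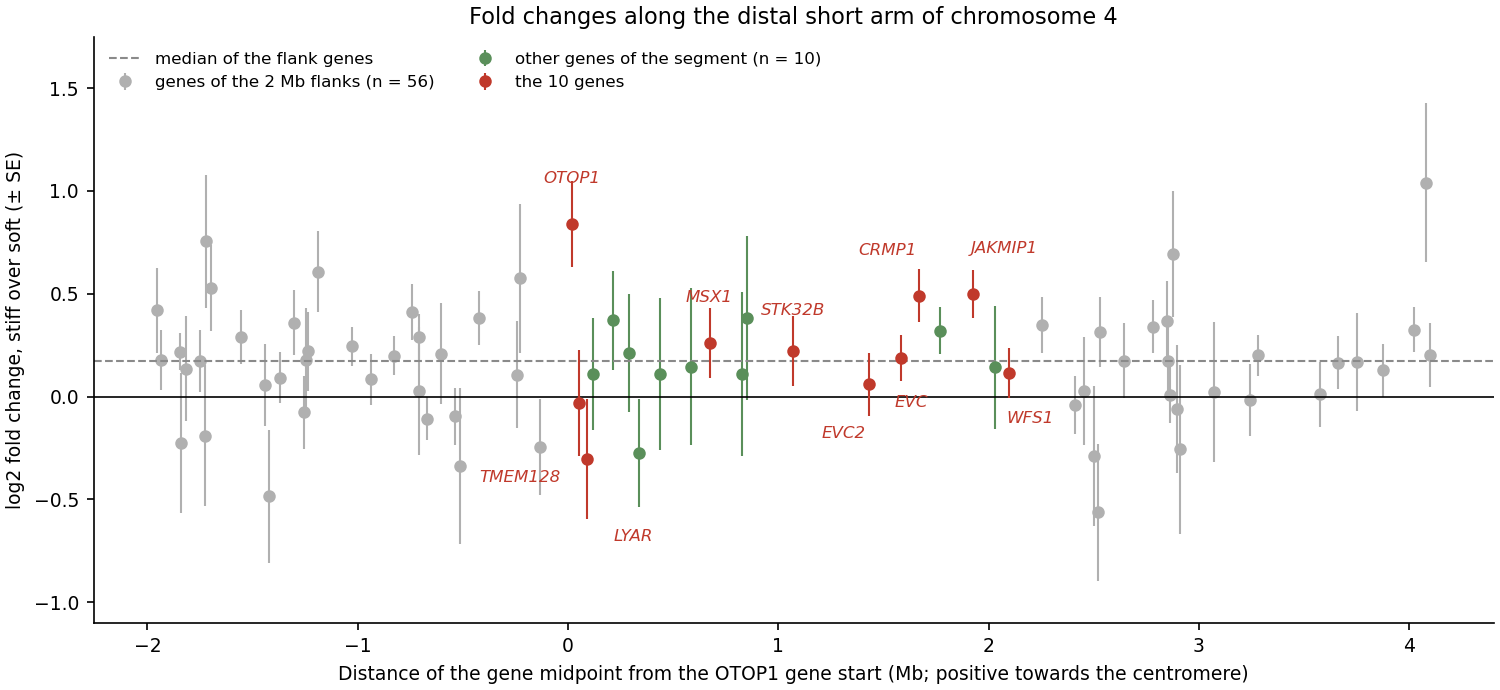
Log2 fold change, stiff minus soft, with its SE (vertical axis) against the distance of each gene's midpoint from the start of OTOP1 in Mb (horizontal axis), for the 10 genes, the 10 other tested genes of the segment and the 56 genes of the 2 Mb flanks. Most points lie a little above 0 along the whole stretch, on both sides of the segment, and OTOP1 lies above its direct neighbours TMEM128 and LYAR.

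Summed over the 56 flank genes, the share of counts outside ribosomal RNA and mitochondrial genes was 0.1927%, 0.1915% and 0.1913% in soft and 0.2135%, 0.2138% and 0.2185% in stiff. The groups did not overlap, and the ratio was 1.12. The exact two-sided permutation test gave p = 0.1, the smallest that 3 against 3 libraries allow. As a share of all counts the order turned, from 0.1785% ± 0.00635 in soft to 0.1684% ± 0.00202 in stiff, a ratio of 0.943 and again an exact permutation p of 0.1. The other 10 genes of the segment took 0.01504% ± 0.00112 and 0.01735% ± 0.000506 of the counts outside ribosomal RNA and mitochondrial genes, a ratio of 1.15 (exact permutation p = 0.1), and of all counts a ratio of 0.97 (exact permutation p = 0.6).

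The median deviation of a set of genes from their own means, in log2 CPM, gives the position of each library. For the 56 flank genes it was -0.0965, -0.0749 and -0.0825 in soft and 0.0738, 0.11 and 0.102 in stiff, close within each group. For the 10 genes it was -0.107, -0.24 and -0.0982 in soft and 0.0802, 0.302 and 0.0809 in stiff, with replicate 2 the farthest from 0 in both groups. For the 10 other genes of the segment it was -0.0716, -0.000583 and -0.157 in soft and 0.193, -0.0285 and 0.127 in stiff, and the groups overlapped. The flanks therefore had a smaller spread between libraries (pooled SD 0.0156) than the 10 genes (0.107) or the other genes of the segment (0.0978), which are fewer.

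**Figure D3:**
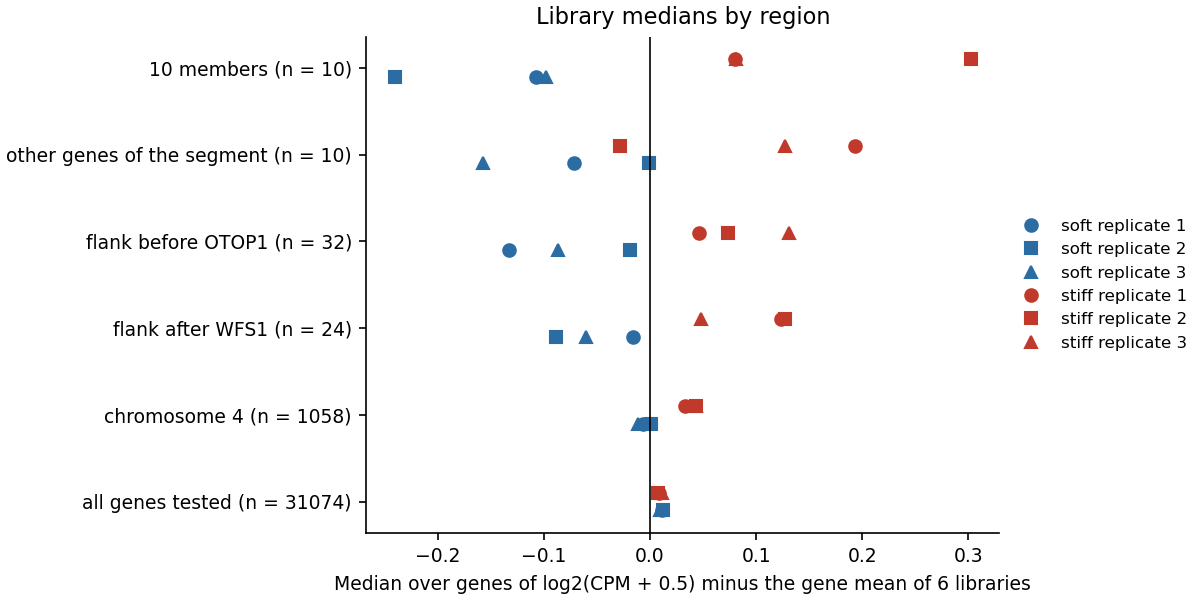
Median deviation in log2 CPM (horizontal axis) of the 10 genes, the other genes of the segment, the flank on each side, chromosome 4 and all genes (vertical axis), in each of the 3 soft and 3 stiff libraries; circles, squares and triangles are replicates 1, 2 and 3. On either flank the stiff libraries, from 0.0461 to 0.131, lie above the soft ones, from -0.133 to -0.0164, while for the other genes of the segment the groups overlap.

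Beyond the flanks, most genes of the first 10 Mb also had log2 fold changes above 0 with TMM scaling. These were 37 of 52 genes before the flanks and 8 of 10 after them. Whether this exceeds what neighbouring genes commonly show was not tested. Chromosome 4 had 7 called genes of 1058 tested, all higher in stiff and all within its first 10 Mb. Over all genes tested, 0.286% were called higher and 0.451% in either direction. Of the 7, OTOP1, CRMP1 and JAKMIP1 belong to the 10 chosen genes. The others were TMEM271, PDE6B, NKX1-1 and FGFR3, which lie nearer the end of the arm than the flank. FGFR3, a fibroblast growth factor receptor, had 150, 134 and 154 counts in soft and 153, 226 and 196 in stiff, overlapping in raw counts, and a log2 fold change of 0.46 ± 0.12 (SE, edgeR adjusted p = 0.0247). TMEM271, a membrane protein gene, had 86, 104 and 98 counts in soft and 124, 154 and 129 in stiff, or 0.57 ± 0.14 (edgeR adjusted p = 0.0151). NKX1-1, a homeobox gene, was at 0.62 ± 0.16 (edgeR adjusted p = 0.0377), and PDE6B, a phosphodiesterase subunit of photoreceptors, at 0.42 ± 0.11 (edgeR adjusted p = 0.0468). TMEM271 kept its call in 4 of 6 fits that left out 1 library (lost without soft replicate 1 and stiff replicate 2) and FGFR3 in 2 (lost without soft replicates 1 and 2 and stiff replicates 2 and 3). NKX1-1 kept it in 1, without soft replicate 3, and PDE6B in 0. After the GC correction none of the 4 was called, at edgeR adjusted p from 0.0987 to 0.598 and log2 fold changes of 0.42 (TMEM271), 0.39 (PDE6B), 0.29 (NKX1-1) and 0.37 (FGFR3). DESeq2 without its filter called none of the 4 (adjusted p from 0.27 to 0.573), and limma called only TMEM271 (adjusted p = 0.0436).

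Over the 128 tested genes of the first 10 Mb other than the 10, 96 (75.0%) were above 0 and the median log2 fold change was 0.17, the same as in the flanks. The bins of 10 Mb were chosen after the flanks had been seen. Among the 243 bins of the genome with at least 50 tested genes, the medians ran from -0.148 to 0.174, and the first bin of chromosome 4, with 138 genes, was the highest. Without the 10 genes it held 128, with a median of 0.172, and still ranked 1 of 243. The minimum of 50 genes matters to that order, since the bin from 50 to 60 Mb on the same chromosome, with 44 genes, had a median of 0.212. The next bin, from 10 to 20 Mb, was at 0.076, and the whole chromosome at 0.0442.

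**Figure D4:**
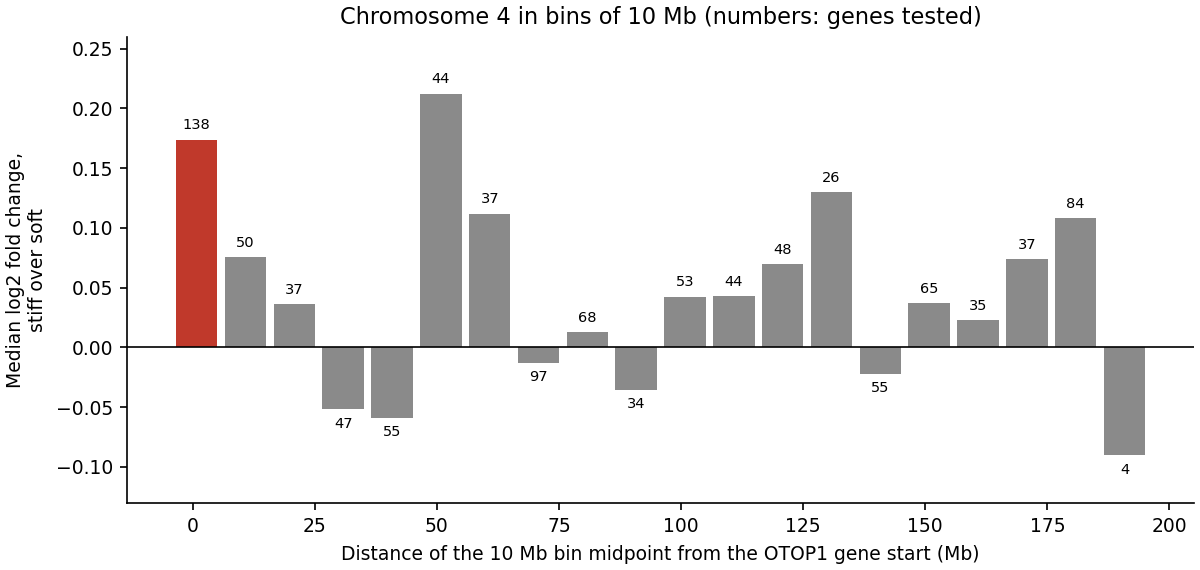
Median log2 fold change, stiff minus soft (vertical axis), of the tested genes in each 10 Mb bin of chromosome 4, placed by the distance of the bin from the start of OTOP1 in Mb (horizontal axis). The bin that holds the 10 genes is at 0.174, and only the bin from 50 to 60 Mb, at 0.212 with 44 genes, is higher.

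GC content moved with the fold change over all genes. In the decile of genes with the highest exon GC (61.6% to 85.5%) the median log2 fold change was 0.136 and 2.34% were called higher, while in the lowest decile (27.9% to 40.0%) the median was -0.0376 and 0.0% were called higher. Of the 10 genes, TMEM128 (41.3% GC) and LYAR (42.7%), both below 0, were also the poorest in GC. OTOP1 (56.7%), CRMP1 (55.6%) and JAKMIP1 (56.1%) lay in the eighth decile, whose median was 0.0219. WFS1 was richest at 61.2% GC and had a log2 fold change of 0.11. After a correction of each library for GC, made on the 23087 genes that had a GC value and were tested, OTOP1 (0.82) and JAKMIP1 (0.48) were still called and CRMP1 (0.48) was not. LYAR was at -0.273 with the correction and at -0.314 for genes with a GC value without it. TMEM128 was at -0.00122 and -0.0441. With this correction the flanks lay 0.143 above all genes and the first 10 Mb 0.117, and the first bin of chromosome 4 ranked 4 of 189. For the genes with a GC value but no correction these were 0.171, 0.167 and 1 of 191.

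**Figure D5:**
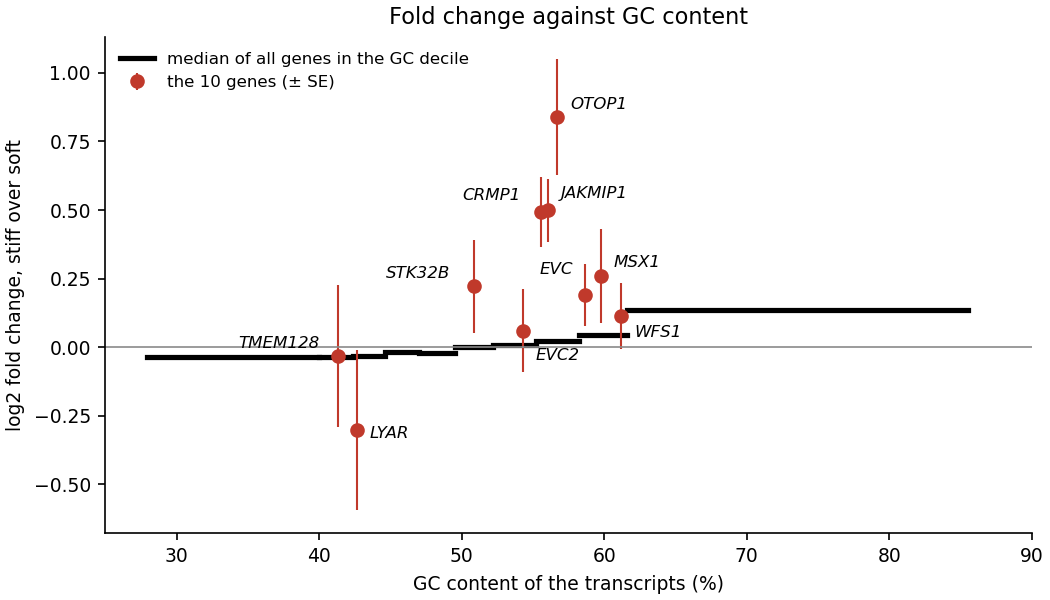
Log2 fold change, stiff minus soft (vertical axis), against exon GC content in percent (horizontal axis), with the median of each decile of all genes with a GC value and the 10 genes with their SE. The decile medians rise from -0.0376 to 0.136, LYAR and TMEM128 lie at the GC-poor end, and OTOP1, CRMP1 and JAKMIP1 lie above the median of their decile.

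The paralogs of the 10 genes sit elsewhere in the genome. In edgeR 0 of 11 passed (OTOP2, OTOP3, JAKMIP2, JAKMIP3, MSX2, STK32A, STK32C and DPYSL2 to DPYSL5), as in limma and in DESeq2 without its filter, and 1, DPYSL2, had an unadjusted p under 0.05. Their median log2 fold change was 0.09, and 8 of 11 were above 0. JAKMIP3 had 0.12, JAKMIP2 -0.20, and the relatives of OTOP1 had 0.04 (OTOP2) and 0.27 (OTOP3). DPYSL2, a CRMP1 relative, had 102, 108 and 114 counts in soft and 124, 146 and 106 in stiff, which overlap, and a log2 fold change of 0.29 (edgeR adjusted p = 0.468).

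The pathways of single genes gave the following counts, to be read, like that of the paralogs, beside 0.451% of all genes tested that were called and 9.51% at an unadjusted p under 0.05. Of 18 Hedgehog genes other than EVC and EVC2, edgeR called 0, as did limma and DESeq2 without its filter, with 4 at an unadjusted p under 0.05, and 8 were above 0 with a median of -0.0072. GLI3, the one with the most counts, had a log2 fold change of 0.06. The 4, named after their values were seen, went both ways. KIF7, a ciliary kinesin of the pathway, had 0.27 (edgeR adjusted p = 0.282) and SHH, the ligand sonic hedgehog, 0.20 (edgeR adjusted p = 0.438). SUFU, a suppressor of the pathway, had -0.32 (edgeR adjusted p = 0.295) and PTCH1, the receptor, -0.17 (edgeR adjusted p = 0.501). Of 14 endoplasmic reticulum stress genes other than WFS1, edgeR called 0 (0 at an unadjusted p under 0.05, and 0 in limma and DESeq2 without its filter), with 5 above 0 and a median of -0.08. ERN1, a stress sensor of that membrane, had -0.11. Of 9 nucleolar genes other than LYAR, edgeR called 0 (1 at an unadjusted p under 0.05, and 0 in limma and DESeq2 without its filter), with 7 above 0 and a median of 0.04. That 1, named after its value was seen, was NCL, nucleolin, with 86, 69 and 77 counts in soft and 102, 118 and 91 in stiff and a log2 fold change of 0.50 ± 0.15 (SE, edgeR adjusted p = 0.132).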

How the data were processed

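RNA of vesicles was sequenced in 6 libraries, 3 soft and 3 stiff. The authors deposited 1 table of raw counts of reads per gene symbol, not normalized. Per the submitters' processing notes, the tools were Trim Galore 0.4.2, cutadapt 1.9.1, FastQC 0.11.7, STAR 2.6.1e, featureCounts 1.6.2 and DESeq2 1.26.0, and the build was hg38. The gene annotation, the strand setting and the treatment of reads with several matches could move counts between overlapping genes, and the sources used here do not give them. The description of the library titled stiff replicate 1 carries another number, and the titles were used.

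The deposited counts were fitted in edgeR 4.0.16 (R 4.3.3) with TMM factors, the default expression filter by group, which removed 7093 genes and kept 31074, and the robust quasi-likelihood test. P-values were adjusted by Benjamini and Hochberg over all genes tested, and a gene was called at an adjusted p under 0.05. Intervals are 95%. limma 3.58.1 and DESeq2 1.42.0 were alternatives. Gene positions came from RefSeq (94.2% of symbols matched) and exon lengths and GC from GENCODE 29 (27221 genes). Deviations used log2(CPM + 0.5). Summed over genes, ribosomal RNA included, every replicate pair differed by more than counting noise. Ribosomal RNA varied between libraries and can drive that sum, so it does not give the noise of single genes such as the 10. Most of the 10 genes had under 200 counts a library, so counting error limits single genes.

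The genes and lists were chosen with earlier results of these data known. Named are the 10 genes, called or overlapping genes of the segment and flanks, the listed paralogs, called list genes and examples with many counts. Other genes named for their values are said to be so. Likeness was measured outside chromosome 4, for genes of at least 5 CPM, as the root mean square difference of centred log2 CPM.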

Additional observations from a re-analysis of the deposited data

How the results depend on the processing

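Each of 18 fits changed 1 setting, except that the GC correction also left out genes with no GC value, and DESeq2 with its independent filter gave no adjusted p for any of the 10 genes or the other genes of the segment. Over all genes, the main 140 calls became 67 in DESeq2 with its filter, 43 without it, 63 after the GC correction (125 for the genes with a GC value without correction), 91 in limma and 4194 with library totals alone (31 higher and 4163 lower), and 60 to 136 when 1 library was left out. Calls among the 10 genes went from 3 to 0 in DESeq2 without its filter, 0 with library totals alone, 1 in limma (JAKMIP1), and 0 to 3 with 1 library left out. OTOP1, CRMP1 and JAKMIP1 stayed above 0 in each of 17 fits with an adjusted p and were called in 10, 9 and 12 of them; LYAR stayed below 0 in all 17. No other gene of the 10 was called in any. With library totals alone, MSX1 went to -0.00917, STK32B to -0.044, EVC2 to -0.21, EVC to -0.0792 and WFS1 to -0.153, the median of the other genes of the segment to -0.124 and that of the flanks to -0.0967; this scaling moved the median of all genes to -0.273. With 1 library left out TMEM128 ran from -0.254 to 0.113 and EVC2 from -0.0168 to 0.139; TMEM128 turned to 0.113, 0.0519 and 0.0809 without soft replicate 1, stiff replicate 1 and stiff replicate 3, and EVC2 to -0.0168 without soft replicate 3. Calls among the other genes of the segment were 0 in every fit with an adjusted p, and in the flanks 1 with library totals alone and 0 to 1 with 1 library left out. Relative to all genes, the flank median stayed between 0.135 and 0.185 and that of the other genes of the segment between 0.0741 and 0.276. Among protein-coding flank genes the median was 0.2, and in flanks of 1 Mb it was 0.106. The ratio of the 10 genes' share, 1.01 over all counts, was 1.2 outside ribosomal RNA and mitochondrial genes, 1.21 with TMM-scaled sizes, and 0.966 to 1.04 with 1 library left out, below 1 without soft replicate 2 (0.994) and stiff replicate 2 (0.966). The first bin of chromosome 4 ranked first in 16 of 18 alternatives. The windows of 10 Mb, the flank medians under each fit and the flank share by denominator were chosen after seeing the data. The deviations of same-numbered libraries had correlations of 0.00241, 0.00346 and -0.00363, and those of other pairs ran from -0.00793 to 0.00529. Counting noise also lowers such correlations, so they cannot decide whether the numbers pair the libraries. A fit with the replicate number as a block called 173 genes, 3 of the 10 among them. At 25 to 40 counts a library, changes of the size seen in the flanks are not detectable in single genes.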

Other observations

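The genes outside chromosome 4 whose pattern over the 6 libraries was most like that of OTOP1, among 26522 compared, were the RNA gene LOC101927932 (root mean square difference 0.106 in log2 CPM), HBZ, an embryonic globin gene (0.117), and UNC119 (0.122). HBZ had 23, 32 and 31 counts in soft and 56, 51 and 44 in stiff. Those most like JAKMIP1 were the RNA gene LOC105377905 (0.0238), SAMD9L (0.0429) and RBP4, a retinol carrier (0.0506). SAMD9L had 62, 65 and 61 counts in soft and 74, 89 and 94 in stiff. OTOP1 and JAKMIP1 were chosen for higher counts in stiff, so the genes most like them are higher in stiff by construction. These likenesses are the closest of 26522 genes and rest on 6 libraries and few counts, so nothing is concluded from them.

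The rest of the first 10 Mb of chromosome 4 gave the following values with TMM scaling. The 52 tested genes before the flanks had a median log2 fold change of 0.19, with 37 above 0. In edgeR 4 of these 52 were called, all higher in stiff, as were 0.286% of all genes tested. The 10 genes after the flanks up to 10 Mb had a median of 0.28, with 8 above 0. Of these 10, 4 had an unadjusted p under 0.05 in edgeR, against 9.51% of all genes tested. Among 23 chromosomes the median of chromosome 4 ranked 4, at 0.0442, between -0.0351 for chromosome 13 and 0.063 for chromosome 19.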
